A study of Arabidopsis thaliana with 8 samples.

Results

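Transcripts of the flavonoid branch were followed through 8 genes chosen by name: the enzymes CHS, CHI, F3H, F3'H, FLS1, DFR and LDOX and the transcription factor MYB111. Of these, 7 had a row among the 19853 genes of the table, and F3H was not analysed here. The flavonoid pathway builds on p-coumaroyl-CoA, the product of the general phenylpropanoid steps. CHS (chalcone synthase), CHI (chalcone isomerase), F3H (flavanone 3-hydroxylase) and F3'H (flavonoid 3'-hydroxylase) are early enzymes that lead to dihydroflavonols. FLS1 (flavonol synthase) then turns dihydroflavonols into flavonols, whereas DFR (dihydroflavonol reductase) and LDOX (leucoanthocyanidin dioxygenase) take the same substrates towards anthocyanins. MYB111 is an R2R3-MYB activator that, with MYB11 and MYB12, is known to switch on the early genes and FLS1, while DFR and LDOX are known to depend on complexes of MYB, bHLH and TTG1 proteins.

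RNA was sequenced from inflorescences of Arabidopsis thaliana whose oldest flowers were at stage 8. The 4 genotypes were the Landsberg erecta strain (Ler), which carries neither mutation, the ag-10 mutant, the fhy3-68 mutant and the ag-10 fhy3-68 double mutant, and each had 2 libraries. AG is the floral organ identity gene AGAMOUS, and FHY3 is a transcription factor of phytochrome A signalling that binds DNA directly. The labels give neither the lesion of the alleles nor the growth conditions, and the purpose they state is the search for FHY3 binding sites in flowers.

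Each library held between 12322061 and 16816619 reads in the listed genes. Values below are normalised reads on a scale of 1000000 per library. FHY3 mRNA lay between 103 and 109.8 in the 4 libraries without fhy3-68 and between 70.5 and 93.0 in the 4 with it, and limma, edgeR and DESeq2 called it in 0 comparisons (unadjusted limma p under 0.05 in 2). AG was not analysed here. All 19 anther and tapetum markers were detected, with none at 0 in every library, and the 7 listed mature pollen markers summed to between 119 and 236 per library. Whole inflorescences mix many cell types, so fewer cells of a type and less RNA per cell cannot be told apart.

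MYB111 (AT5G49330), the activator, was the most even of the 7 transcripts among the libraries without fhy3-68. Ler libraries gave 32.7 and 33.5, ag-10 libraries 33.4 and 32.2, fhy3-68 libraries 25.5 and 14.2, and double-mutant libraries 19.6 and 16.8 (replicate 1 first, here and below). All 4 libraries with fhy3-68 lay below all 4 without it. The fhy3-68 effect averaged over both backgrounds, which sets those 4 libraries against the other 4 with genotype means of equal weight, was a fall by 0.81 on the log2 scale (SE 0.17, limma adjusted p = 0.0200, Benjamini-Hochberg over all genes).

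CHS (AT5G13930), the entry enzyme, was the most abundant. It reached 770.2 and 622 with Ler, 759 and 591 with ag-10, 563 and 336 with fhy3-68, and 467 and 307 with both mutations, again without overlap between libraries with and without fhy3-68. The averaged fhy3-68 effect on CHS was a fall by 0.75 (SE 0.20, limma adjusted p = 0.0452).

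FLS1 (AT5G08640) reached 510.1 and 439.7 with Ler, 514 and 383 with ag-10, 359 and 120.4 with fhy3-68, and 259 and 164 with both mutations. Its libraries did not overlap either, and its averaged log2 difference of -1.15 (SE 0.33) was the largest of the 7, but it missed the threshold (limma adjusted p = 0.0516). The spread between the fhy3-68 libraries, from 120.4 to 359, was the widest that FLS1 showed within a genotype.

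CHI (AT3G55120) reached 107 and 93.15 with Ler, 112 and 84.6 with ag-10, 89.6 and 38.8 with fhy3-68, and 73.95 and 46.1 with both mutations. F3'H (AT5G07990) reached 134 and 89.98 with Ler, 128 and 65.7 with ag-10, 76.6 and 28.5 with fhy3-68, and 66.5 and 38.1 with both mutations. In both genes at least 1 library with fhy3-68 reached above the lowest library without it, so the groups overlapped. The averaged log2 differences were -0.74 for CHI (SE 0.27, limma adjusted p = 0.0950) and -1.04 for F3'H (SE 0.36, limma adjusted p = 0.0868), and neither passed.

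The anthocyanin enzymes were present at far lower levels and leaned the other way without a call. DFR (AT5G42800) reached 12.9 and 5.87 with Ler, 19.1 and 7.97 with ag-10, 16.7 and 13.5 with fhy3-68, and 21.5 and 12.2 with both mutations. LDOX (AT4G22880) reached 18.3 and 9.20 with Ler, 24.3 and 13.5 with ag-10, 21.4 and 11.02 with fhy3-68, and 26.2 and 14.5 with both mutations. For both, the libraries with and without fhy3-68 overlapped, and in DFR replicate 2 of Ler and of ag-10 lay below all 4 with fhy3-68. The averaged log2 difference was 0.56 for DFR (SE 0.34, limma adjusted p = 0.281) and 0.17 for LDOX (SE 0.33, limma adjusted p = 0.747).

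**Figure D1:**
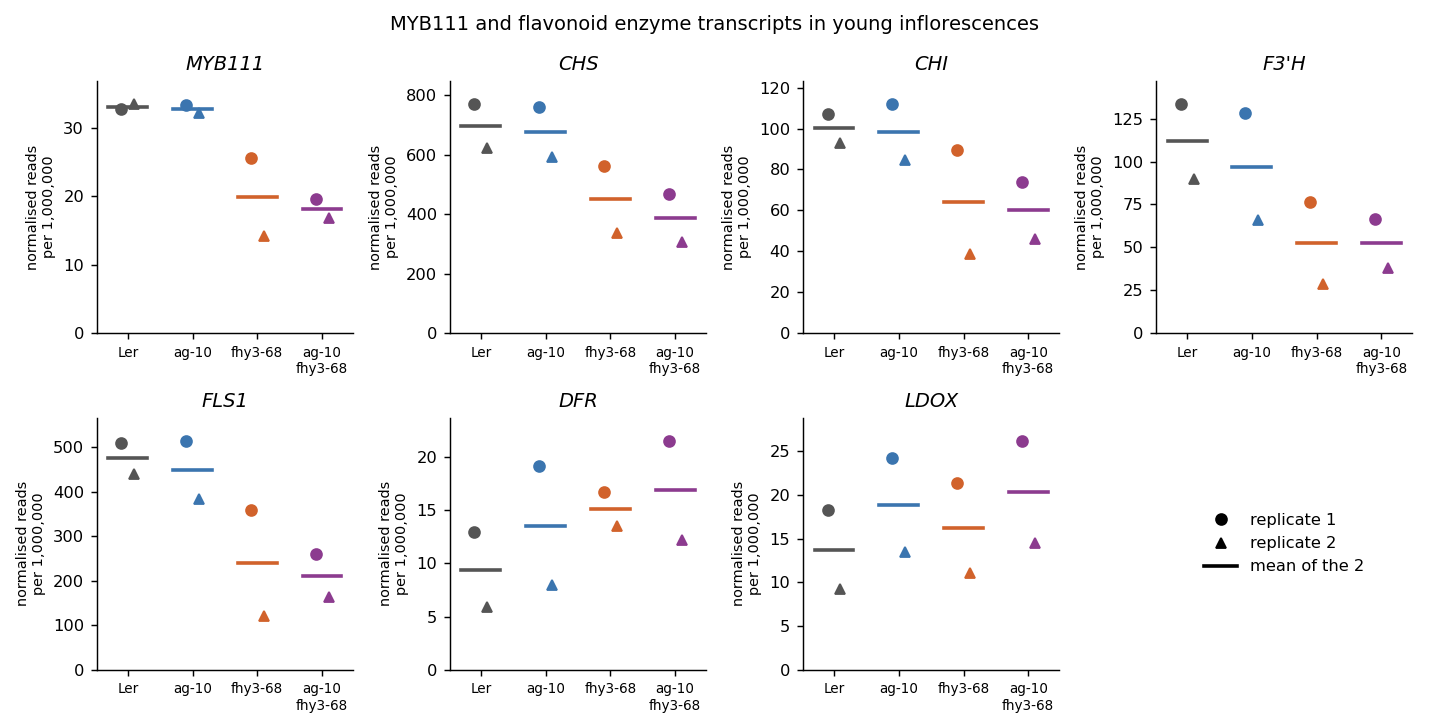
Normalised reads per 1000000 (vertical axes, each from 0) of MYB111 and 6 flavonoid enzymes in the 4 genotypes (horizontal axes). Circles are replicate 1, triangles replicate 2 and bars the mean of the 2; MYB111, CHS and FLS1 have all 4 fhy3-68 libraries below the other 4, while DFR and LDOX overlap.

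In that averaged comparison 2 of the 7 genes were called, MYB111 and CHS, both lower, where 17.9% of all genes were called, 7.34% lower and 10.6% higher. The median log2 difference was -0.75 over the 7 and -0.01 over all 19853 genes. For 3 of the 7, MYB111, CHS and FLS1, the 4 libraries with fhy3-68 lay wholly below the others, as they did for 12.9% of all genes, and 14.3% of all genes showed the opposite order. The edgeR quasi-likelihood test on the recovered reads called 1 gene, MYB111 (adjusted p = 0.0227), with CHS at 0.0518, and DESeq2 called both. Without any 1 library of Ler or ag-10, or without double-mutant replicate 2, the call of MYB111 was lost (limma adjusted p from 0.0517 to 0.0767), although its log2 difference stayed between -0.60 and -1.02 over all 8 such fits. The call of CHS held without fhy3-68 replicate 1 (limma adjusted p = 0.0104) or double-mutant replicate 1 (0.0482) and was lost without any of the other 6 (0.0687 to 0.152).

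The bases before the transcription start are shown for MYB111 and CHS, which were called, for FLS1, which had the largest difference, and for DFR, which leaned the other way. They are the 250 bases before the start of the RefSeq gene model in TAIR10.1, the Columbia reference, read 5' to 3' on the gene's strand, so bases that differ in Ler are not shown. MYB111 lies on the minus strand (chr5:20001573-20001822), CHS on the plus strand (chr5:4488226-4488475), FLS1 on the plus strand (chr5:2803583-2803832) and DFR on the minus strand (chr5:17166033-17166282). Capitals mark each match to the motifs searched that lies wholly within the printed bases. The AC-II match of DFR crosses the start and is not marked.
MYB111: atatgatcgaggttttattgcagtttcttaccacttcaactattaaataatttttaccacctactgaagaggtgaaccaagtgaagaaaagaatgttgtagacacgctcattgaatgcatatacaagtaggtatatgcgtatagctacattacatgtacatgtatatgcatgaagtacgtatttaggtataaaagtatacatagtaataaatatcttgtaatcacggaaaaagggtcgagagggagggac
CHS: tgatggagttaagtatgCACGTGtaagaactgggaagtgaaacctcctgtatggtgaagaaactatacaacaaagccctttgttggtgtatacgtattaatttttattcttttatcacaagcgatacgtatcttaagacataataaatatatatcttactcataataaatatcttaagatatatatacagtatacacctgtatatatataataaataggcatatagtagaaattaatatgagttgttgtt
FLS1: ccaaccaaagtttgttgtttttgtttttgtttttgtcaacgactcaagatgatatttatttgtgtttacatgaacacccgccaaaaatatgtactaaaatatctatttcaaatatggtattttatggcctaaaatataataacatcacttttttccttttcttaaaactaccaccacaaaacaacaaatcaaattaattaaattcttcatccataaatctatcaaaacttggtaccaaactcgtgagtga
DFR: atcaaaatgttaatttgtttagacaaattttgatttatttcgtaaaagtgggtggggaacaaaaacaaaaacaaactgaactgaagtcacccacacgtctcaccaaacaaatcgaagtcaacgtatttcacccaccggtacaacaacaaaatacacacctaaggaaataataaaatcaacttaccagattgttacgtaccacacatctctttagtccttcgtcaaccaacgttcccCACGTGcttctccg

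The motifs were searched on both strands in a 300-base window, these 250 bases plus the first 50 of the transcript, for all 7 genes and for 19364 listed genes in all. The core of the FHY3 binding site, CACGCGC, was in 0 of the 7 windows and in 1.72% of all windows. The G-box, CACGTG, a light-response element bound by bZIP and bHLH factors, was in 3 of the 7 (CHS, CHI and DFR) and in 8.73% of all. It began 233 bases before the start in CHS and 14 bases before the start in DFR, which held another within the transcript, and the match of CHI was also within the transcript. AC elements, to which MYB factors of this group bind, were searched in 3 forms. The AC-I form was ACCTACC, the AC-II form was ACCAACC, and the AC-III form was ACCTAAC. DFR alone of the 7 held one (AC-II, across the start), compared with 7.40% of all windows for any of them. The motifs searched do not overlap one another in these 7 windows. These are matches of letters in a short window, and binding was not measured.

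Each single comparison was also taken on its own, and none called any of the 7. In fhy3-68 against Ler, which called 3.05% of all genes, the log2 differences were -0.78 for MYB111 (limma adjusted p = 0.108), -0.67 for CHS (0.208), -1.18 for FLS1 (0.177), -1.22 for F3'H (0.201) and -0.76 for CHI (0.272). With 1 library left out they ran from -1.19 to -0.369 for MYB111, -1.04 to -0.299 for CHS, -1.97 to -0.398 for FLS1, -1.92 to -0.515 for F3'H and -1.35 to -0.157 for CHI. The lower end of each came without fhy3-68 replicate 1, and the upper end without fhy3-68 replicate 2. For the double mutant set against Ler, with 4.33% of all genes called, they were -0.85 for MYB111 (limma adjusted p = 0.0864), -0.87 for CHS (0.125), -1.200 for FLS1 (0.171), -1.11 for F3'H and -0.77 for CHI. When the double mutant was set against ag-10, with 1.5% of all genes called, they were -0.84 for MYB111 (limma adjusted p = 0.117), -0.82 for CHS (0.172), -1.11 for FLS1 (0.231), -0.86 for F3'H and -0.73 for CHI. For all 7 genes the sign was the same in both backgrounds, and the test was passed in neither taken alone. The first pair of these comparisons shares the Ler libraries, and the second shares the double mutant. In each of the 3, limma gave 3 of the 7 an unadjusted p under 0.05. Over all 19853 genes, 4845 were under it in fhy3-68 against Ler, and 4875 and 4193 in the double mutant against Ler and ag-10. Of the same 7, edgeR called 0 in all 3. DESeq2 called CHS and MYB111 in the double mutant against Ler and against ag-10, and 0 in fhy3-68 against Ler. Over all 19853 genes DESeq2 called 1589, 1068 and 1491 in that order, and edgeR 755, 207 and 511.

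DFR differed by 0.75, 0.86 and 0.38 in those 3 comparisons and LDOX by 0.23, 0.57 and 0.10 (log2, limma adjusted p from 0.317 to 0.922). With SEs of 0.47 to 0.49, each of these differences was under 2 SEs.

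For the ag-10 mutation on its own, set against Ler, where 0.00504% of all genes (1 gene) were called, the log2 differences ran from -0.25 (F3'H) to 0.48 (DFR, SE 0.49), with LDOX at 0.46 (SE 0.47) and MYB111 at -0.01 (SE 0.24). Between the double mutant and fhy3-68, where 0% of all genes were called, they ran from -0.20 (CHS) to 0.33 (LDOX). The interaction, the fhy3-68 effect in ag-10 minus that in Ler, called 0.00504% of all genes and ran from -0.37 (DFR) to 0.36 (F3'H), with SEs of 0.34 to 0.73. In these 3 comparisons 0 of the 7 were called by limma, edgeR or DESeq2, and 0 had an unadjusted p under 0.05 in any of the tools. With limma, 357, 427 and 241 of all 19853 genes were under it, in that order.

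**Figure D2:**
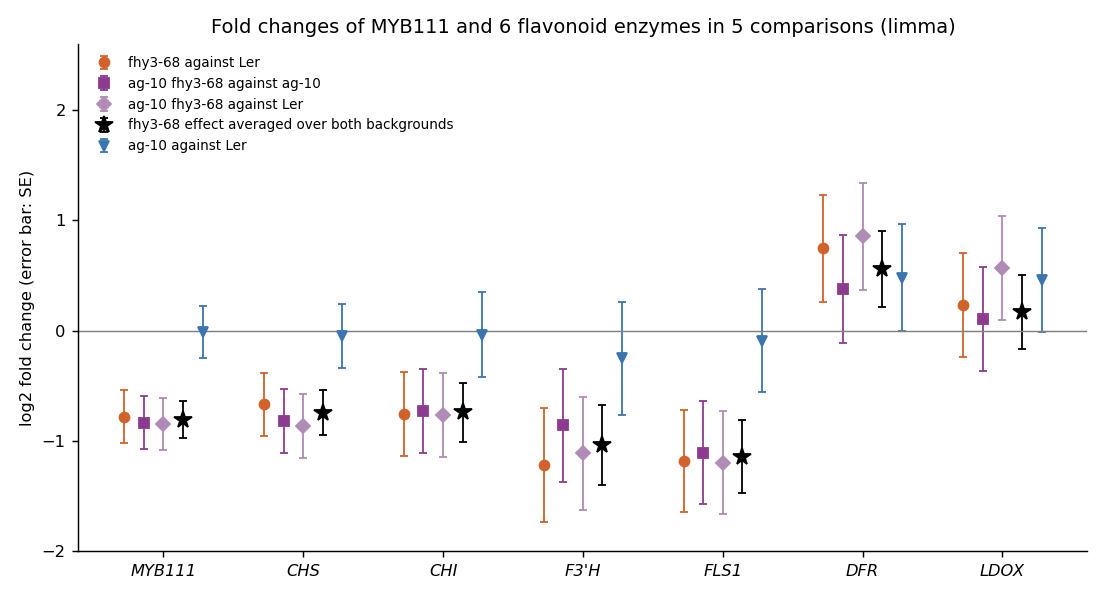
Log2 fold changes (vertical axis) of MYB111 and 6 enzymes in 5 comparisons fitted with limma, with error bars of 1 SE. The comparisons that contain fhy3-68 lie below 0 for MYB111, CHS, CHI, F3'H and FLS1 and above 0 for DFR and LDOX, and ag-10 against Ler lies near 0 for MYB111.

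Divided by exonic length, so that genes can be set side by side, CHS led in Ler at 409 normalised reads per kilobase (365 to 452), followed by FLS1 at 293.5 (272 to 315), CHI at 90.1 (83.8 to 96.4) and F3'H at 57.95 (46.7 to 69.3). MYB111 followed at 20.3, LDOX at 9.83 (6.57 to 13.1) and DFR at 6.18 (3.86 to 8.49). The ranges of LDOX and DFR overlapped, and those of the other neighbours did not. In ag-10 and in fhy3-68 the order of the means was the same. MYB111 at 12.2 (8.70 to 15.6) then overlapped LDOX at 11.6 (7.87 to 15.3), and in the double mutant the mean of LDOX, 14.5, exceeded that of MYB111, 11.1. Behind these levels stood 18697 reads of CHS over both Ler libraries, 883 of MYB111 and 256 of DFR.

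FLS1 and DFR draw on the same dihydroflavonols, so their ratio is given as well, a choice made after the values were seen. Per kilobase, FLS1 exceeded DFR by 37.1 and 70.4 times with Ler, 25.3 and 45.2 times with ag-10, 20.2 and 8.40 times with fhy3-68, and 11.3 and 12.6 times with both mutations. All 4 ratios with fhy3-68 were below all 4 without it. FLS1 alone already separated these libraries, and no share over other gene pairs was worked out. The ratio of CHS to FLS1 per kilobase was narrower, from 1.345 to 1.465 without fhy3-68 and from 1.49 to 2.65 with it, the highest in fhy3-68 replicate 2.

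Replicates of fhy3-68 differed by more in all 7 of these genes than in the median gene of the table. Replicate 1 was above replicate 2 in all 4 genotypes for each of the 6 enzymes, and in 3 of 4 for MYB111, compared with 12.6% of all genes for which this held in all 4. The log2 difference between replicates in fhy3-68 was 1.57 for FLS1, 1.41 for F3'H, 1.20 for CHI, 0.82 for MYB111 and 0.74 for CHS, where the median absolute difference of all genes was 0.23. In Ler the same difference was 0.21 for FLS1, -0.03 for MYB111 and 1.07 for DFR, with a median of 0.11 over all genes. Over the 4 genotypes the replicates of DFR differed by 0.30 to 1.21 and those of LDOX by 0.82 to 0.96, while the genotype means of these genes differed from Ler by at most 0.86 and 0.57 on the log2 scale.

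The steps before CHS were taken from a list of 9 early phenylpropanoid genes. Of these, 1 was called lower and 1 higher in the averaged fhy3-68 comparison, where 17.9% of all genes were called, with a median log2 difference of -0.30. 4CL3, a 4-coumarate:CoA ligase that supplies the flavonoid branch, stood between 92.3 and 138 without fhy3-68 and between 37.0 and 82.6 with it. It fell by 1.05 (SE 0.25, limma adjusted p = 0.0302). PAL3, a phenylalanine ammonia-lyase isoform of low level, rose by 0.58 (SE 0.12, limma adjusted p = 0.0182), from between 15.6 and 19.9 without fhy3-68 to between 24.05 and 31.4 with it. PAL1 (-0.35, limma adjusted p = 0.0521) and C4H, cinnamate 4-hydroxylase (-0.24, limma adjusted p = 0.199), were not called there. PAL1 was lower in the double mutant against Ler (-0.68, limma adjusted p = 0.0465), a call that held in 2 of 8 fits with 1 library left out. The monolignol branch competes for the same precursor. In the averaged comparison its 7 listed genes had 0 calls with limma, edgeR and DESeq2 and a median of -0.20. Limma gave 2 of them an unadjusted p under 0.05, as it did 7079 of all 19853 genes. Without either Ler library, ag-10 replicate 2 or double-mutant replicate 2, both early phenylpropanoid calls were lost. Without fhy3-68 replicate 1 more were called lower. Calls over the whole table fell or rose likewise in each of these fits.

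Of 17 listed flavonoid enzymes and related genes beyond the 7 (24 looked for), the averaged comparison called 3 lower and 1 higher. It called 17.9% of all genes, and the median of the 17 was -0.38. CHIL, a chalcone isomerase-like protein without catalytic activity that aids CHS, reached 225 and 222 with Ler, 229.6 and 197 with ag-10, 153 and 79.2 with fhy3-68, and 102 and 79.9 with both mutations. It fell by 1.12 (SE 0.20, limma adjusted p = 0.0122), with no overlap, and was also lower in the double mutant against Ler (-1.30, limma adjusted p = 0.0478), a call that likewise held in 2 of 8 such fits. RHM1, which makes the UDP-rhamnose used to decorate flavonols, fell by 1.01 (SE 0.26, limma adjusted p = 0.0388). UGT84A2, a glucosyltransferase of sinapate, fell by 0.67 (SE 0.17, limma adjusted p = 0.0391). FLS2, a homologue of FLS1 on 61 to 122 reads per genotype, rose by 0.60 (SE 0.15, limma adjusted p = 0.0358). The flavonol methyltransferase OMT1 (-0.73, limma adjusted p = 0.0514) and the flavonol glycosyltransferases UGT78D2 (-0.54, 0.0653) and UGT78D1 (-0.38, 0.207) missed the threshold. The 3 lower calls were lost without either Ler library, fewer without any 1 library of ag-10 or the double mutant, and more without fhy3-68 replicate 1. In each of these fits, calls over the whole table fell or rose likewise. Of the 4 listed transport genes, among them TT19 (-0.22, limma adjusted p = 0.632), 0 were called by limma, edgeR or DESeq2. Of these 4, 0 had an unadjusted p under 0.05 in the averaged comparison, where 7079 of all 19853 genes did with limma.

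The regulators split in both directions in the averaged comparison, where 10.6% of all genes were called higher and 7.34% lower. With 30 looked for, 5 of the 21 listed were called higher and 4 lower, with a median of 0.005. MYBL2, a small MYB protein known to repress flavonoid and anthocyanin genes, reached 6.81 and 12.7 with Ler, 9.94 and 14.6 with ag-10, 42.5 and 53.0 with fhy3-68, and 62.0 and 39.2 with both mutations. It rose by 2.14 (SE 0.24, limma adjusted p = 0.00415). AT1G23390, which RefSeq describes as a Kelch-repeat F-box protein, stood between 26.0 and 33.3 without fhy3-68 and between 97.1 and 185 with it, and rose by 2.05 (SE 0.19, limma adjusted p = 0.0029). Its highest value was in fhy3-68 replicate 2, the library lowest in CHI, F3'H, FLS1 and MYB111. MYBL2 was instead highest in double-mutant replicate 1, and a link between these levels was not tested. CHS was lowest in double-mutant replicate 2, and DFR and LDOX in Ler replicate 2.

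The LBD proteins 37, 38 and 39 are known to repress anthocyanin genes in response to nitrate. LBD38 stood between 10.6 and 12.6 without fhy3-68 and between 20.7 and 23.9 with it, and rose by 0.89 (SE 0.09, limma adjusted p = 0.0031). LBD37 rose by 0.68 (SE 0.14, limma adjusted p = 0.0201) and LBD39 by 0.78 (SE 0.15, limma adjusted p = 0.0164). ANL2, a homeodomain protein needed for anthocyanin in subepidermal tissue, stood between 46.5 and 51.7 without fhy3-68 and between 27.0 and 35.2 with it, and fell by 0.70 (SE 0.09, limma adjusted p = 0.00518). EGL3, a bHLH partner in the MYB-bHLH-TTG1 complex, fell by 0.38 (SE 0.08, limma adjusted p = 0.0229). MYB4, a repressor of phenylpropanoid genes, fell by 0.50 (SE 0.14, limma adjusted p = 0.0477), and SPL9, known to lower anthocyanin genes, fell by 0.41 (SE 0.11, limma adjusted p = 0.0430).

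MYBL2, LBD38, AT1G23390 and ANL2 were called, in the same directions, in fhy3-68 against Ler, and in the double mutant against both Ler and ag-10 as well, and in the averaged comparison under all 16 alternatives. With 1 library left out, the call in fhy3-68 against Ler held in 5 of 8 fits for MYBL2 and LBD38, 6 for AT1G23390 and 2 for ANL2. The call in the double mutant against Ler held in 5 of 8 for MYBL2 and LBD38 and in 4 for AT1G23390 and ANL2. That against ag-10 held in 2 of 8 for each of these genes, without either fhy3-68 library, a genotype outside that comparison. Where a call was lost, the limma adjusted p went up to at most 0.259. The 5 higher calls became fewer without Ler replicate 1 or double-mutant replicate 1. The 4 lower calls became fewer without any 1 library of Ler, ag-10 or the double mutant, and more without fhy3-68 replicate 1. Calls over the whole table moved the same way in each of these fits. MYB12, the close relative of MYB111, stood between 9.88 and 11.8 without fhy3-68 and between 5.26 and 9.79 with it, with an averaged difference of -0.59 that missed the threshold (limma adjusted p = 0.0727). MYB11 (0.06), TTG1 (0.07), the bHLH factor TT8 (0.14), the light regulator HY5 (0.005) and the anthocyanin activator PAP1 (-0.42) were not called (limma adjusted p from 0.365 to 0.983). PAP1, TT8 and MYB11 lay below 5 in every library. Of 5 genes of UV-B and high-light response, 0 were called by limma, edgeR or DESeq2. Limma gave 1 of them an unadjusted p under 0.05 in the averaged comparison, as it did 7079 of all 19853 genes. Their averaged log2 differences ran from -1.26 to 0.17, with a median of -0.21.

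**Figure D3:**
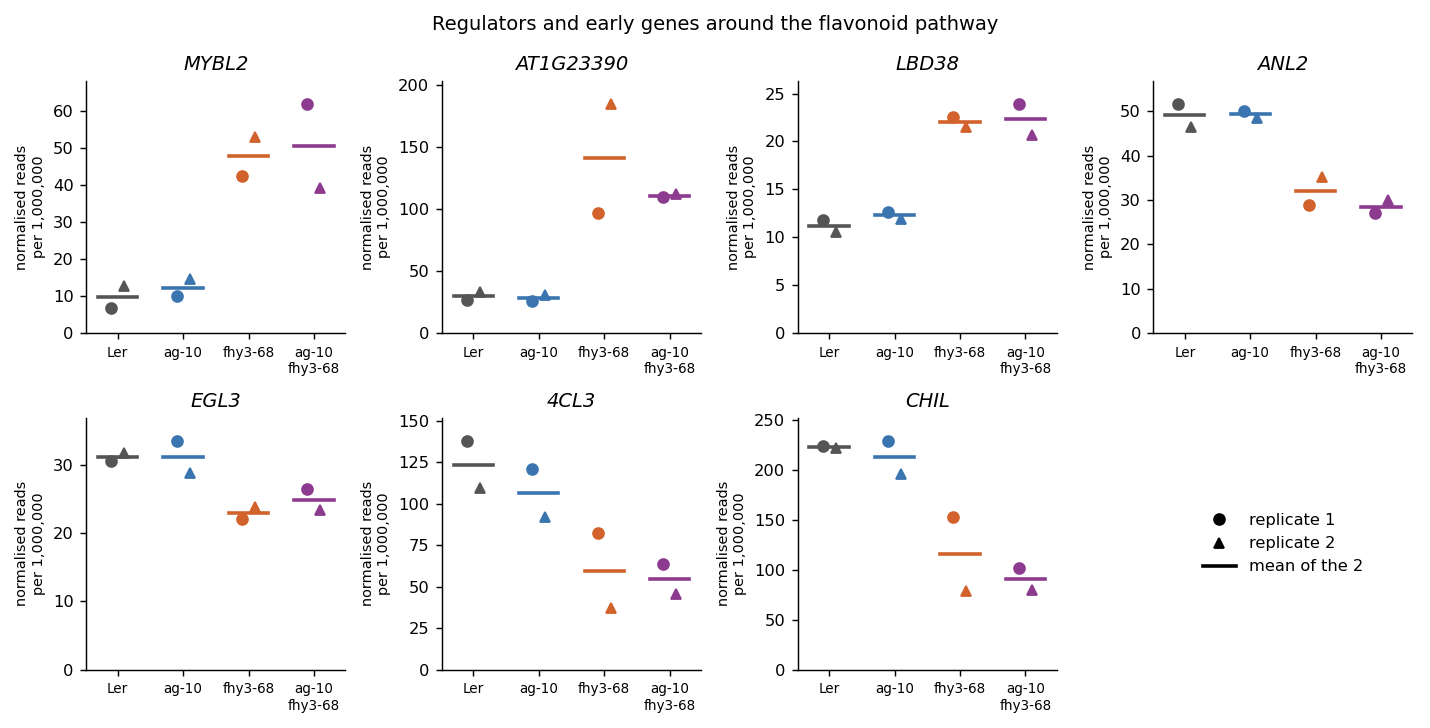
Normalised reads per 1000000 (vertical axes, each from 0) of 5 regulators and of the early pathway genes 4CL3 and CHIL in the 4 genotypes; circles are replicate 1, triangles replicate 2 and bars the mean of the 2. The 4 fhy3-68 libraries lie wholly above the other 4 for MYBL2, AT1G23390 and LBD38 and wholly below them for the other 4 genes.

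**Figure D4:**
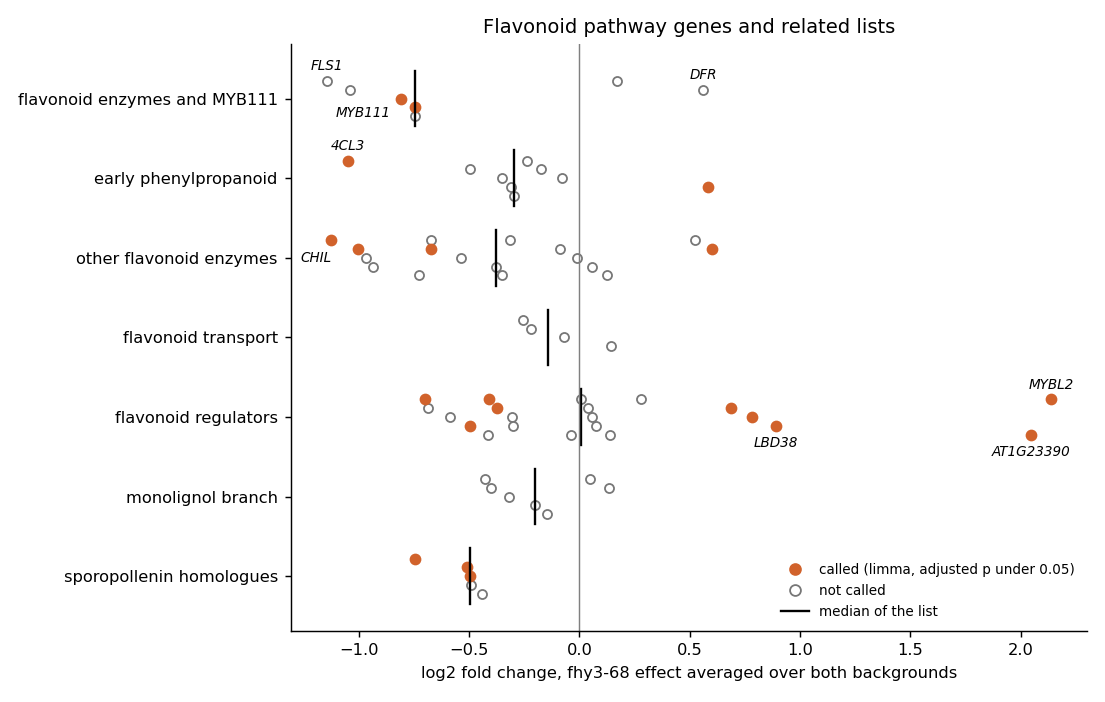
Averaged fhy3-68 log2 fold change (horizontal axis) of every listed gene, 1 point a gene, in 7 lists around the flavonoid pathway (rows). Filled points were called by limma at an adjusted p under 0.05, and a vertical bar marks the median of a list; MYBL2 and AT1G23390 stand near 2, the other points between about -1.15 and 0.89.

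Genes of other programmes moved with the averaged fhy3-68 contrast, which called 10.6% of all genes higher and 7.34% lower. Of 12 low-sugar response genes, 10 were called higher (median log2 difference 3.12). Their summed level was 233 to 269 in Ler and 251 to 309 in ag-10. It was 735 in replicate 1 and 2907 in replicate 2 of fhy3-68, and 1052 and 2178 in the double mutant. The sum was higher in replicate 2 than in replicate 1 of all 4 genotypes. All 6 enzymes, DFR and LDOX included, were lower in replicate 2 of all 4, Ler and ag-10 included. Of 13 rapid stress genes, 11 were called higher (median 2.06), with sums of 172 to 346 in Ler, 126 to 432 in ag-10, 1278 to 1569 in fhy3-68 and 681 to 1383 in the double mutant. The count of 11 fell without either Ler library or double-mutant replicate 2, as did calls over the whole table.

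Of 19 anther and tapetum markers, 10 were lower and 1, ATA20, higher (median -0.35), against 7.34% and 10.6% of all genes. Their sum was 4385 to 4397 in Ler, 3651 to 3805 in ag-10, 3765 to 4291 in fhy3-68 and 3367 to 3559 in the double mutant. ATA20, an anther transcript, made up much of it, at 1215 and 1278 with Ler and 2064 and 1556 with fhy3-68, and rose by 0.54 (SE 0.11, limma adjusted p = 0.0201). Left out after its values were seen, it leaves a sum of 3107 to 3183 in Ler, 2493 to 2703 in ag-10, 2208 to 2228 in fhy3-68 and 1617 to 2001 in the double mutant, so the 4 libraries with fhy3-68 then lay below the other 4. Of 7 mature pollen markers, 1 was higher and 0 were lower. The sporopollenin enzymes of the tapetum include LAP5, a homologue of CHS, and TKPR1 and TKPR2, homologues of DFR. Of 5 such genes 3 were lower, TKPR2 by 0.75 (SE 0.10, limma adjusted p = 0.00579), TKPR1 by 0.51 (SE 0.12, limma adjusted p = 0.0270) and LAP5 by 0.50 (SE 0.14, limma adjusted p = 0.0487). The 3 became fewer without either library of Ler or ag-10 or double-mutant replicate 1, as did calls over the whole table. Without double-mutant replicate 2 they became more, although calls over the whole table fell. The part of these programmes in the levels of the flavonoid genes was not tested.

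**Figure D5:**
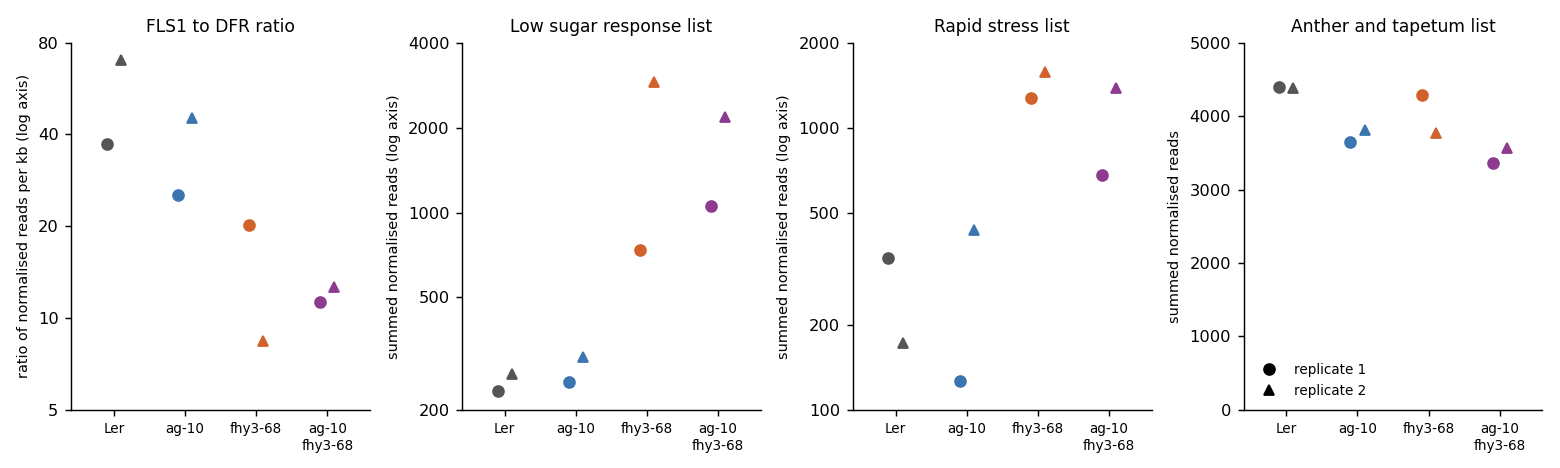
The ratio of FLS1 to DFR per kilobase, and the summed normalised reads of the low-sugar, rapid stress and anther lists, by genotype (circles replicate 1, triangles replicate 2); the first 3 panels have log axes. The ratio, chosen after the values were seen, runs from 25.3 to 70.4 without fhy3-68 and from 8.40 to 20.2 with it. The low-sugar sum is highest, 2907, in fhy3-68 replicate 2.

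Profiles over the 8 libraries were compared as a description, with points that share genotype and library. With MYB111 the Pearson r was 0.973 for FLS1, 0.939 for CHS, 0.935 for CHI, 0.892 for F3'H, 0.10 for LDOX and -0.34 for DFR. The 5 genes outside the pathway most like MYB111 were CYP86A7, MLP423, FLA12, AT2G34190 and GAPC1, with r from 0.993 to 0.994. CYP86A7 stood between 109.9 and 118 without fhy3-68 and between 36.2 and 85.7 with it. With the mean standardised profile of the 6 enzymes, r was 0.36 for DFR, 0.70 for LDOX and 0.87 to 0.93 for the other enzymes. The genes outside the pathway most like this mean were AAE7, MEE31, AT3G15680, EXPA5 and AT2G05220, with r from 0.974 to 0.987. These were high in replicate 1 and low in replicate 2 of every genotype, as with EXPA5 at 37.5 and 31.3 in Ler and 34.1 and 19.0 in fhy3-68.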

How the data were processed

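RNA libraries of young inflorescences were grouped by the genotype and replicate number in their titles. The deposited signal is read counts per gene that the authors divided by a size factor and scaled to 1000000. This was worked out from the values, since 100% were whole reads within 0.1 after division by what 1 read is worth. Per the submitters' processing notes, the tools included HTSeq 0.6.1p1, edgeR 3.10.0, TopHat2 2.0.14 and CASAVA 1.8. The build is not given in the sources used here, nor are annotation and strand use. CHS overlaps AT5G13940, a gene model of the opposite strand, by 2 bases. Every listed gene reached 1 in at least 2 libraries, so low transcripts were not analysed here, and the level behind a missing list gene is unknown.

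A count test had been planned for counts. Because the values were normalised, limma 3.58.1 (R 4.3.3) with an intensity trend was fitted to log2(value + 0.5) over all 8 libraries, with 4 residual and 3.41 prior degrees of freedom. Calls were made at a two-sided Benjamini-Hochberg adjusted p under 0.05 over 19853 genes. Fold changes are on this log2 scale, which understates low genes. The edgeR 4.0.16 and DESeq2 1.42.0 tests on recovered reads were alternatives, beside other pseudocounts, filters, scalings and left-out libraries. The fits were tested on simulated data. Replicates are separate libraries, and where separate plants are not stated, p-values measure only the spread between libraries. Replicate numbers were not taken as pairs.

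Members, lists and tests were chosen with earlier results of these data known. Named genes are the members, every gene of the other lists called in any of the 7 comparisons, in the text only those of the pathway, and a set named in advance (MYB11, MYB12, PAP1, TT8, TTG1, MYBL2, HY5, CHIL, PAL1, C4H, 4CL3, UGT78D1, UGT78D2, OMT1, TT19). The 5 profiles most alike were ranked by Pearson r. Gene names, exonic lengths and promoter sequences came from RefSeq TAIR10.1, which matched 19811 of 19853 identifiers (99.79%).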

Additional observations from a re-analysis of the deposited data

How the results depend on the processing

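Over the alternatives to the log2 fold changes of named genes, 1097 of 1378 values kept their direction and side of the threshold, 170 lost a call, 42 gained one and 69 turned in direction. In the averaged fhy3-68 comparison the 5 transcripts measured lower stayed lower and DFR stayed higher under all 16 alternatives. MYB111 was called in 11 of the 16, CHS in 8, FLS1 in 4, CHI and F3'H in 2 each, DFR in 1 and LDOX in 0. The number of the 7 genes called there, 2, became 1 with edgeR, 1 without the intensity trend and 0 to 5 with 1 library left out. For the double mutant against Ler, 0 became 2 with DESeq2, 3 with only the libraries compared and 0 to 3 with 1 library left out. Against ag-10, 0 became 2, 1 and 0 to 2 in that order, and in fhy3-68 against Ler 0 became 0 to 5 with 1 library left out. A library left alone in its genotype was assumed to vary like the others.

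Same-numbered libraries did not deviate together between Ler and the mutants (correlations 0.0151, 0.0714 and -0.108) but did among the mutants (0.174, 0.277 and 0.453), and with 2 numbers a genotype this is a hint only. With the replicate block, 6 of the 7 genes were called in the averaged comparison (all but LDOX), 5 in the double mutant against Ler, 2 when it was set against ag-10 and 3 in fhy3-68 against Ler. Over all 19853 genes the block called 4925, 1959, 927 and 1849 in that order, where the main fit called 3553, 859, 298 and 605.

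Some directions turned, and the cause was not tested. Between the double mutant and fhy3-68 these were CHI at 0.017 and FLS1 at 0.014 with library totals, and F3'H at -0.009 with edgeR and -0.003 with DESeq2. In the interaction they were CHI at -0.072 and -0.067 and FLS1 at -0.103 and -0.099 with edgeR and DESeq2. With 1 library left out, ag-10 against Ler ran as MYB111 -0.040 to 0.011, CHS -0.228 to 0.132, CHI -0.238 to 0.165, F3'H -0.734 to 0.225, FLS1 -0.305 to 0.119, DFR -0.126 to 1.085 and LDOX -0.016 to 0.940. The double mutant against fhy3-68 ran as MYB111 -0.482 to 0.343, CHS -0.571 to 0.174, CHI -0.612 to 0.586, F3'H -0.600 to 0.809, FLS1 -0.802 to 0.770, DFR -0.289 to 0.507 and LDOX -0.130 to 0.796. The interaction ran as MYB111 -0.467 to 0.357, CHS -0.523 to 0.222, CHI -0.575 to 0.622, F3'H -0.345 to 1.063, FLS1 -0.710 to 0.863, DFR -0.976 to 0.235 and LDOX -0.607 to 0.348. Against ag-10, the double mutant gave DFR -0.230 to 0.981 and LDOX -0.315 to 0.523, with LDOX -0.244 to 0.711 in fhy3-68 against Ler and LDOX -0.070 to 0.408 in the averaged comparison.

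Calls over the whole table moved most with 1 library left out, from 3553 to between 929 and 6370 in the averaged comparison, from 605 to between 1 and 3399 in fhy3-68 against Ler, from 859 to between 2 and 2802 in the double mutant against Ler and from 298 to between 1 and 1820 against ag-10. Among the other alternatives these 4 counts lay between 2859 and 4925, 153 and 1849, 297 and 2917, and 67 and 1068. The 1 gene of ag-10 against Ler became up to 23 with DESeq2, and that of the interaction up to 3. In the averaged comparison, CHIL was called in 14 of 16 alternatives, LBD39 in 14, PAL3, EGL3 and LBD37 in 12 each, TKPR1 in 11, 4CL3, RHM1, UGT84A2 and SPL9 in 9 each, and MYB4 and LAP5 in 7 each. FLS2 was called in 8 of 15, as it could not be fitted at a mean value of at least 5. Without either Ler library, the lower calls among the flavonoid enzymes and related genes beyond the 7 were lost. In the 250 bases before the start alone, the G-box was in 7.26% of all promoters, the FHY3 site in 1.34% and an AC element in 6.17%, with 2, 0 and 0 of the 7.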
